A study of Homo sapiens with 9 samples.

Results

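The human placental hormone genes and genes for other products of the syncytiotrophoblast were examined in a human pluripotent cell line that was leaving the naive state. The cells received vehicle or a compound made to inhibit or degrade Polycomb repressive complex 2 (PRC2). The counts do not measure PRC2 protein or activity. The 36 genes were taken by symbol from a table of 56307 genes. They comprise the placental lactogen and growth hormone genes (CSH1, CSH2, CSHL1, GH2), 10 pregnancy-specific glycoprotein genes (PSG), the chorionic gonadotropin genes (CGA and 6 CGB genes), and LEP, INSL4, KISS1, PAPPA, PAPPA2, ADAM12, ENPEP, PGF, FLT1, HSD3B1, CYP19A1, LGALS13, LGALS14, LGALS16 and PLAC1. Of these, 21 had enough reads to be tested and 15 did not.

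The cells were HNES1, an embryo-derived line of wild-type genotype kept in the naive state on mouse feeder cells and then replated without them. All libraries are from day 5 after withdrawal of the naive medium (PXGL) into basal medium with the tankyrase inhibitor XAV939. The UNC group received UNC1999 at 1 µM, a catalytic inhibitor of the PRC2 enzymes EZH2 and EZH1. The PROTAC group received UNC6852 at 2.5 µM, a bifunctional molecule that brings the PRC2 subunit EED to a ubiquitin ligase for degradation, and the DMSO group received vehicle. Compounds were present from a day before the medium change and were replaced with each day's medium. There were 3 libraries per group, and the series records that the experiment was done independently 3 times. A single line was used, and the compounds differ in dose and in mode of action.

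The syncytiotrophoblast is the fused outer layer of the placental villus. It forms when cytotrophoblast cells fuse with the help of envelope proteins of retroviral origin, and it releases protein hormones, steroids and angiogenic factors into the maternal blood. PRC2 places the repressive mark H3K27me3, and in human naive cells it has been described as a restraint on trophoblast genes.

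Library totals were between 31648689 counts (PROTAC 3) and 101073148 counts (UNC 1). The cells carried the pluripotent profile that their label names: on the scale of counts-per-million (CPM, from TMM-scaled totals) 7 pluripotent marker genes summed to 5692 to 6242 CPM in UNC, 5649 to 6461 CPM in PROTAC and 5496 to 5922 CPM in DMSO. All 36 placental genes together summed to 22.2 to 37.4 CPM in UNC, 29.3 to 61.5 CPM in PROTAC and 32.6 to 64.3 CPM in DMSO. A list of 8 trophoblast markers, none of them among the 36, summed to 8.45 to 13.4 CPM in UNC, 13.3 to 20.3 CPM in PROTAC and 14.0 to 21.8 CPM in DMSO. The cytotrophoblast markers TP63 and ELF5 had 11 and 4 counts over all 9 libraries, and the amnion marker VTCN1 had 6. In RNA from whole cultures, fewer cells of a type and less RNA per cell cannot be told apart.

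**Figure D1:**
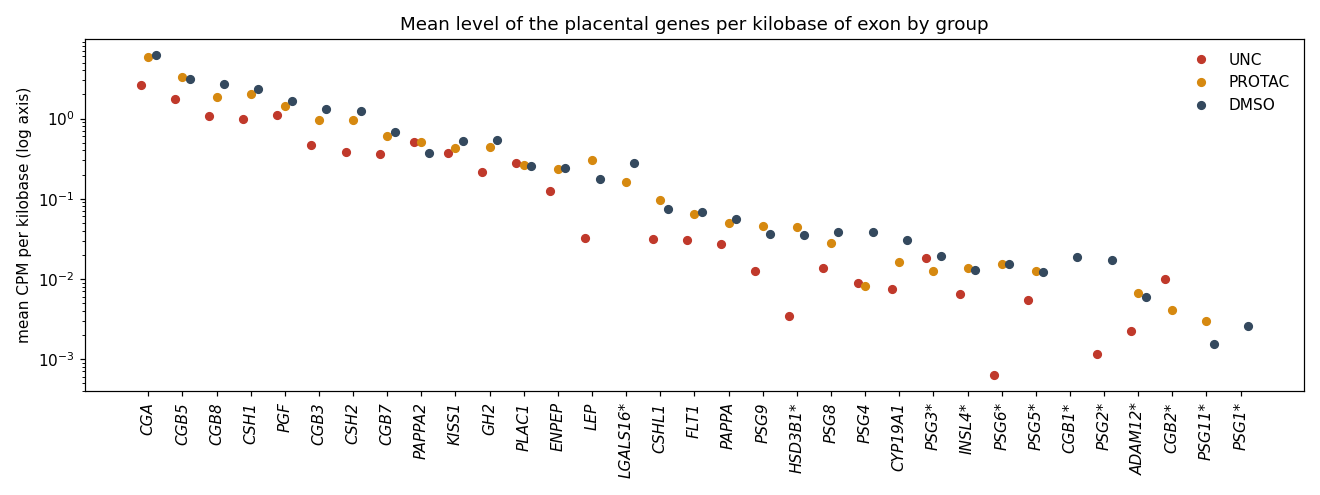
Mean level of each placental gene detected in at least 1 library, in CPM per kilobase of exon (log axis), with 1 point per group (UNC, PROTAC, DMSO). Asterisks mark genes too low to test, a group at 0 has no point, and CGA leads with a mean of 4.91 CPM per kilobase over all libraries.

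Per kilobase of exon, the most abundant of these transcripts were CGA (4.91 CPM per kilobase averaged over the 9 libraries), CGB5 (2.74), CGB8 (1.89), CSH1 (1.80) and PGF (1.41), while no PSG gene was above 0.0313. The plot of mean levels per kilobase shows the whole set. Both chains of chorionic gonadotropin and the lactogen CSH1 were measurable in every library, whereas LGALS13, LGALS14 and PSG7 had no count in any. The other 12 untested genes had between 2 counts (PSG1, CGB1, CGB2) and 62 counts (LGALS16) over all 9 libraries, with ADAM12 at 26, HSD3B1 at 33 and INSL4 at 13. A count of 0 in 1 library allows up to 0.0289 to 0.0947 CPM, depending on its depth, for counting error alone.

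Set against DMSO, UNC cultures had less placental lactogen RNA in both fits used here, and less RNA of several other placental hormones in a paired fit. In the test by group alone, CSH1 and CSH2 fell, 2 of 21 genes, where 0.401% of all 24182 genes tested fell. Libraries of the same number (1, 2 or 3) deviated together across the groups, and in a fit that pairs them by number 13 of 21 genes fell and 1, PAPPA2, rose, where 6.46% of all genes fell and 7.05% rose. Each of the 13 was lower in UNC than in DMSO in 3 of 3 pairs. The paired fit favours such genes, so this adds no support, and the uncalled CGA, CGB5, PSG8 and PSG9 were lower in 3 of 3 pairs too. The 13 include PSG4, which passed the filter on low values only through the 3 DMSO libraries, so that its direction was fixed by the filter. The median log2 fold change over the 21 genes was -1.31, against -0.01 over all genes tested. That median covers only genes that passed the filter, and CSHL1, PSG4, PSG8 and PSG9 passed it with 0 UNC libraries at or above its level. Of the 13, CSH1, CSH2, GH2, CGB3, CGB7, CGB8 and PSG4 have paralogs in the set with which they can share reads. The 13 falls and the median are therefore not values of separate genes throughout, and sums by family are given below. For PROTAC against DMSO no gene of the set passed by group alone, where 0% of all genes did, and in the paired fit PAPPA2 alone rose, where 2.03% of all genes did, and none of the 21 fell, where 0.988% did. Every adjusted p below is from edgeR's quasi-likelihood test with Benjamini-Hochberg adjustment over all genes tested.

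**Figure D2:**
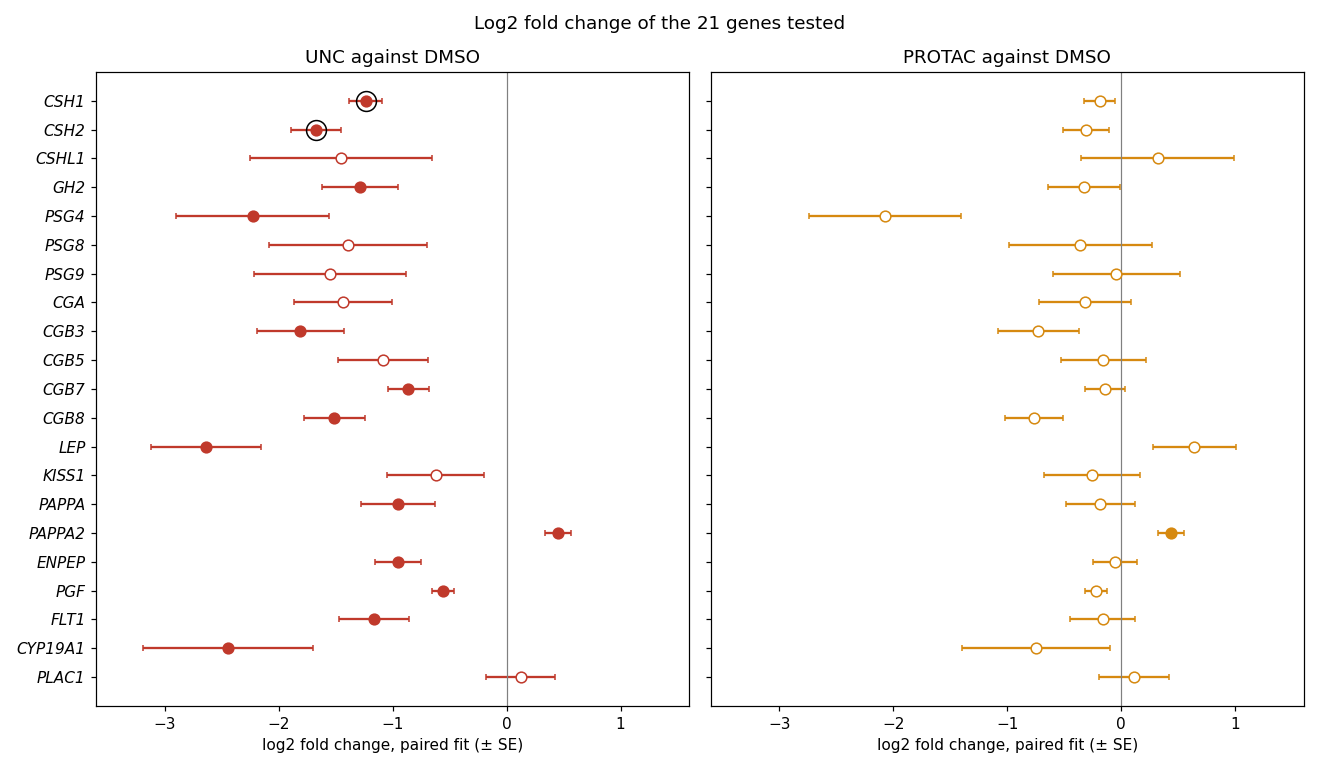
Log2 fold change of the 21 tested genes in the paired fit (points, bars ± SE), UNC against DMSO on the left and PROTAC against DMSO on the right. Filled points passed a false discovery rate of 0.05 in the paired fit, 13 lower and 1 higher for UNC and 1 higher for PROTAC, and ringed points (CSH1 and CSH2) also passed by group alone.

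The genes that fell by group alone were the placental lactogen genes, which lie in the growth hormone cluster of chromosome 17 (GRCh38) and encode a hormone that shifts maternal metabolism and stimulates mammary growth. CSH1 (chromosome 17, 63894909 to 63896661, minus strand) was at 1.49, 1.35 and 2.10 CPM in UNC 1, 2 and 3, at 3.12, 3.40 and 3.69 CPM in PROTAC, and at 3.40, 3.77 and 4.60 CPM in DMSO. Every UNC library was below every PROTAC and every DMSO library, and the PROTAC and DMSO ranges overlapped. CSH1 fell in UNC against DMSO to 0.426 of its level (log2 fold change -1.23, SE 0.20, adjusted p = 0.01584 by group alone, and -1.24, SE 0.15, adjusted p = 9.82e-08 in the paired fit). CSH2 (chromosome 17, 63872012 to 63873766, minus strand) was at 0.587, 0.357 and 1.07 CPM in UNC, at 1.85, 1.40 and 1.80 CPM in PROTAC, and at 1.62, 2.02 and 2.88 CPM in DMSO. Here too UNC lay below both other groups without overlap. CSH2 fell in UNC against DMSO (log2 fold change -1.63, SE 0.33, adjusted p = 0.04501 by group alone, and -1.68, SE 0.22, adjusted p = 8.546e-07 in the paired fit). By group alone the CSH1 call was lost when UNC 2 (adjusted p up to 0.07506), DMSO 2 or DMSO 3 was left out, and the CSH2 call was lost without any 1 of 7 of the 9 libraries, UNC 3 and PROTAC 1 being the exceptions (adjusted p up to 0.1662). In the paired fit both calls remained with each library left out.

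GH2, placental growth hormone, which replaces the pituitary form in maternal blood during pregnancy, lies between CSH2 and CSH1. It was at 0.298, 0.230 and 0.216 CPM in UNC, at 0.444, 0.588 and 0.473 CPM in PROTAC, and at 0.728, 0.618 and 0.519 CPM in DMSO. UNC was again below both other groups in every library. GH2 did not pass by group alone (log2 fold change -1.31, SE 0.31, adjusted p = 0.07566) and fell in the paired fit (-1.29, SE 0.34, adjusted p = 0.007252), a call lost without UNC 2 or DMSO 1 (adjusted p up to 0.06924). CSHL1, a lactogen-like gene of the same cluster, had 60 counts in all, overlapping groups and no call.

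**Figure D3:**
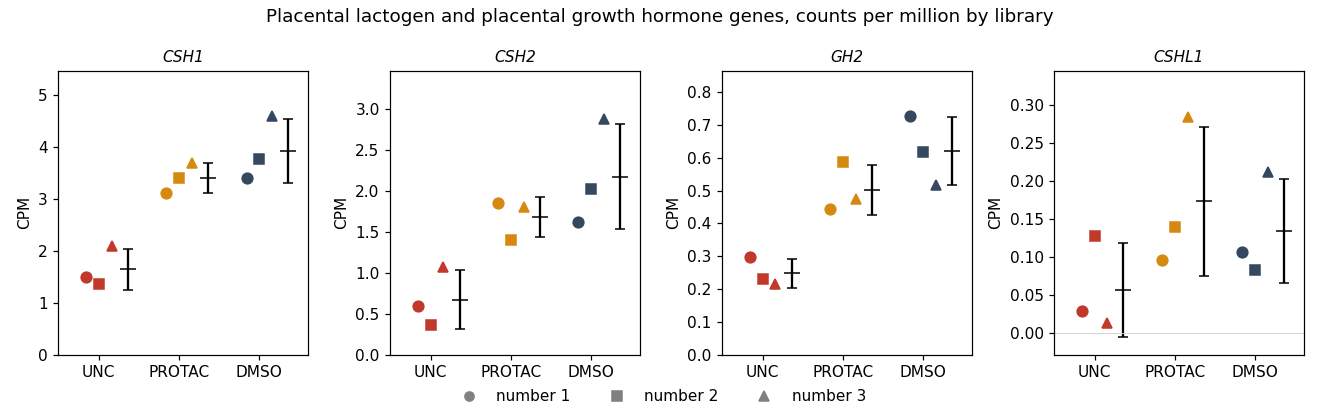
CPM of CSH1, CSH2, GH2 and CSHL1 in each library (symbols by library number) with the group mean and SD (n = 3 each) beside them, for UNC, PROTAC and DMSO. For CSH1, the 3 UNC libraries sit between 1.35 and 2.10 CPM, below all PROTAC libraries (3.12 to 3.69 CPM) and all DMSO libraries (3.40 to 4.60 CPM).

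Counts of CSH1 and CSH2 can trade places, since 50.2% of the 75-base windows of CSH1 transcripts and 52.6% of those of CSH2 are found in another gene (GENCODE 29), mostly the other of the pair. The sum of the family does not depend on that split. GH1, with which GH2 shares 5.94% of its windows, is not in the sum. Summed, CSH1, CSH2, CSHL1 and GH2 reached 2.41, 2.07 and 3.39 CPM in UNC, 5.51, 5.53 and 6.25 CPM in PROTAC, and 5.86, 6.49 and 8.20 CPM in DMSO. The sum fell in UNC against DMSO (log2 fold change -1.37, SE 0.19, adjusted p = 0.006555 by group alone, and -1.37, SE 0.12, adjusted p = 1.63e-10 in the paired fit), and by group alone it kept its call with each single library left out. The share of CSH2 among CSH1 and CSH2 counts was 20.9% to 33.7% in UNC, 29.2% to 37.2% in PROTAC and 32.3% to 38.5% in DMSO. The groups overlapped, and the exact 95% binomial interval of UNC 2 (11.9% to 32.6%, counting error only) lay below those of PROTAC 1 (32.8% to 41.8%) and DMSO 3 (33.1% to 44.1%).

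The lactogen genes passed in neither fit for PROTAC against DMSO. CSH1 and GH2 were lower in PROTAC in 3 of 3 pairs, CSH2 in 2 and CSHL1 in 1. The family sum gave -0.23 in the paired fit (adjusted p = 0.3182). By group alone, the log2 fold change of CSH1 in PROTAC against DMSO was -0.21 (95% interval -0.67 to 0.26) and that of CSH2 was -0.36 (-1.13 to 0.41). Set directly against UNC, PROTAC was higher in the paired fit for CSH1 (log2 fold change 1.05, SE 0.15, adjusted p = 7.608e-06) and for CSH2 (1.37, SE 0.22, adjusted p = 0.0001176). Both were higher in 3 of 3 pairs, which adds no support because the paired fit favours such genes. The uncalled GH2 and CSHL1 were higher in 3 of 3 pairs too. By group alone neither CSH1 nor CSH2 passed in PROTAC against UNC (adjusted p = 0.1519 for CSH1 and 0.3641 for CSH2).

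Chorionic gonadotropin is the hormone that maintains the corpus luteum in early pregnancy. Its alpha chain, from CGA, is shared with the pituitary gonadotropins and thyrotropin, and its beta chain comes from the CGB genes, which sit together on chromosome 19. The 250 bases before the RefSeq start of CGA and of the beta genes CGB3, CGB5 and CGB8 are shown because these beta gene windows are near copies of each other, whereas CGA has a promoter of its own with a repeated element (GRCh38.p14, 5′ to 3′ on the gene's strand). The windows lie before the start, so their likeness does not measure how far transcripts share reads. Capitals mark exact matches to AGATAA, the letters searched for GATA factors, and to TGACGTCA, the cAMP response element (CRE).
CGA (chr6:87095107-87095356, minus strand): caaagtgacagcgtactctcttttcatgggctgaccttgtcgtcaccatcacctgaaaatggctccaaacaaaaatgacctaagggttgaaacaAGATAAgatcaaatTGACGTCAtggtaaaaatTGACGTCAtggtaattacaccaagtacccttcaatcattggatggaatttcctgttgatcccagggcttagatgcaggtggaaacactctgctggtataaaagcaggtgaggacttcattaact
CGB3 (chr19:49024334-49024583, minus strand): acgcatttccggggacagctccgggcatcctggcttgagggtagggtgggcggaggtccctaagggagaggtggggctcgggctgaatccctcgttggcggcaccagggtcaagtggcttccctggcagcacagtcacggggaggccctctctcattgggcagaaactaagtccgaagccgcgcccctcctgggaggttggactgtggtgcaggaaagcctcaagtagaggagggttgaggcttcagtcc
CGB5 (chr19:49043598-49043847, plus strand): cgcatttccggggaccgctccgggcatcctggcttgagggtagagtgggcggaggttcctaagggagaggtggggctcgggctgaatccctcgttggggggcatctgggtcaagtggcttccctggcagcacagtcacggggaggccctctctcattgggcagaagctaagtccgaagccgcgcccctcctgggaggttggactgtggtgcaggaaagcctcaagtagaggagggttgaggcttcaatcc
CGB8 (chr19:49049112-49049361, minus strand): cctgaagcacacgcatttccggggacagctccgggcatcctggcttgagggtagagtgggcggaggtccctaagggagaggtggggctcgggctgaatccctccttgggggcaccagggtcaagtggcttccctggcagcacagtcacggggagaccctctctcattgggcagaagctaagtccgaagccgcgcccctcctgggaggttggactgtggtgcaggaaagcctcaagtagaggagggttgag
The CRE stands in CGA 142 and 124 bases before the start, and the GATA match 156 bases before it. The CRE letters occur in 1.65% of 35116 RefSeq promoters of the same length, and AGATAA, on either strand, in 9.17%. No match to these letters, or to those searched for TFAP2 (GCCNNNGGC), TEAD (GGAATG) or GCM1 (ATGCGGG), stands in these 3 beta gene windows. Other beta genes do hold matches: the CRE letters stand 53 bases before the start of CGB1 and 31 bases before that of CGB2, both too low to test, and the TFAP2 letters 98 bases before that of CGB7. Aligned, CGB3 and CGB5 were identical at 241 of 249 bases (96.8%), CGB3 and CGB8 at 235 of 240 (97.9%), and CGB5 and CGB8 at 233 of 239 (97.5%).

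CGA was at 1.55, 12.6 and 3.61 CPM in UNC 1, 2 and 3, at 1.67, 24.6 and 14.3 CPM in PROTAC, and at 4.23, 22.5 and 15.9 CPM in DMSO. Library 1 was the lowest of its group in all 3 groups, and the groups overlapped widely. CGA did not pass in either fit for UNC against DMSO (log2 fold change -1.34, SE 1.19, adjusted p = 0.7461 by group alone, and -1.44, SE 0.43, adjusted p = 0.128 in the paired fit).

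The beta genes were likewise lowest in library 1 of each group. CGB8 was at 0.231, 1.86 and 0.788 CPM in UNC, at 0.222, 2.69 and 2.05 CPM in PROTAC, and at 0.971, 3.24 and 2.92 CPM in DMSO. CGB3 was at 0.0577, 0.893 and 0.292 CPM in UNC, at 0.0740, 1.44 and 1.04 CPM in PROTAC, and at 0.440, 1.40 and 1.65 CPM in DMSO. Within each number the UNC library was below the DMSO library for both genes, although the groups overlapped. In the paired fit CGB8 fell in UNC against DMSO (log2 fold change -1.51, SE 0.27, adjusted p = 0.0005814), as did CGB3 (-1.81, SE 0.38, adjusted p = 0.002479, lost without UNC 3 at 0.06512). By group alone neither passed (adjusted p = 0.5791 and 0.5688).

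CGB5 was at 0.308, 3.16 and 1.00 CPM in UNC, at 0.423, 4.14 and 3.72 CPM in PROTAC, and at 1.03, 3.66 and 3.28 CPM in DMSO. It showed the same low library 1 in each group and passed in neither fit (paired log2 fold change -1.08 for UNC against DMSO, adjusted p = 0.133). CGB7, a beta gene that also has transcripts outside the placenta, was at 0.895, 1.56 and 1.20 CPM in UNC, at 1.22, 2.74 and 2.27 CPM in PROTAC, and at 1.18, 3.07 and 2.71 CPM in DMSO. Library 1 was again the lowest of each group. CGB7 fell in UNC against DMSO in the paired fit (log2 fold change -0.86, SE 0.18, adjusted p = 0.0008875). It was also higher in PROTAC than in UNC (0.72, SE 0.18, adjusted p = 0.01815), a call that ended without UNC 2, UNC 3, PROTAC 2 or PROTAC 3. CGB7 shares 9.28% of its 75-base windows with other genes, against 69.0% to 78.7% for CGB3, CGB5 and CGB8, but it overlaps an unnamed entry on its own strand with 407 counts against its own 1082.

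Summed over the 6 CGB genes, which avoids the split of reads among these copies, the beta genes reached 1.49, 7.50 and 3.28 CPM in UNC, 1.95, 11.0 and 9.09 CPM in PROTAC, and 3.63, 11.4 and 10.6 CPM in DMSO. The related gene LHB is not in this CGB total. The CGB sum fell in UNC against DMSO in the paired fit only (log2 fold change -1.17, SE 0.24, adjusted p = 0.02114, against 0.6504 by group alone), and the call was lost without UNC 1, DMSO 1 or DMSO 3 (adjusted p up to 0.1061). PROTAC against DMSO gave -0.34 in the paired fit (adjusted p = 0.5556).

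The gonadotropin genes also differed between library numbers. After the values had been seen, number 1 was set against numbers 2 and 3 in the paired fit, over all 24182 genes. This contrast was chosen with these values known, and libraries of a number deviated together across the groups. Its SE and adjusted p therefore do not measure the spread between repeats, and its values and calls are given as a description. CGA was lower in number 1 (log2 difference -2.58, SE 0.41, adjusted p = 0.0141), and so were CGB3 (-2.70), CGB5 (-2.45), CGB8 (-2.34), CGB7 (-0.98) and LEP (-1.72). ENPEP (0.47) and FLT1 (0.69) were higher. These are 6 of 21 genes lower and 2 higher, beside 13.1% and 15% of all genes. Without overlap of the 3 libraries of number 1 and the other 6, 0 genes of the set were higher and 0 lower, beside 7.29% and 6.67% of all genes. The lactogen genes were not called: CSH1 differed by -0.24 (adjusted p = 0.1416) and CSH2 by -0.20 (adjusted p = 0.4277). CGB3, CGB5 and CGB8 together made up 40.0% of all CGB counts in UNC 1, 37.0% in PROTAC 1 and 67.4% in DMSO 1, against 63.6% to 78.9% in the 6 libraries of numbers 2 and 3. The 8 trophoblast markers were lower in number 1 as well, at 8.45, 13.3 and 14.0 CPM in UNC 1, PROTAC 1 and DMSO 1, against 12.4 to 21.8 CPM in numbers 2 and 3. The part of trophoblast RNA in this difference was not tested. The labels give no date, batch or lane that would say what a number stands for.

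**Figure D4:**
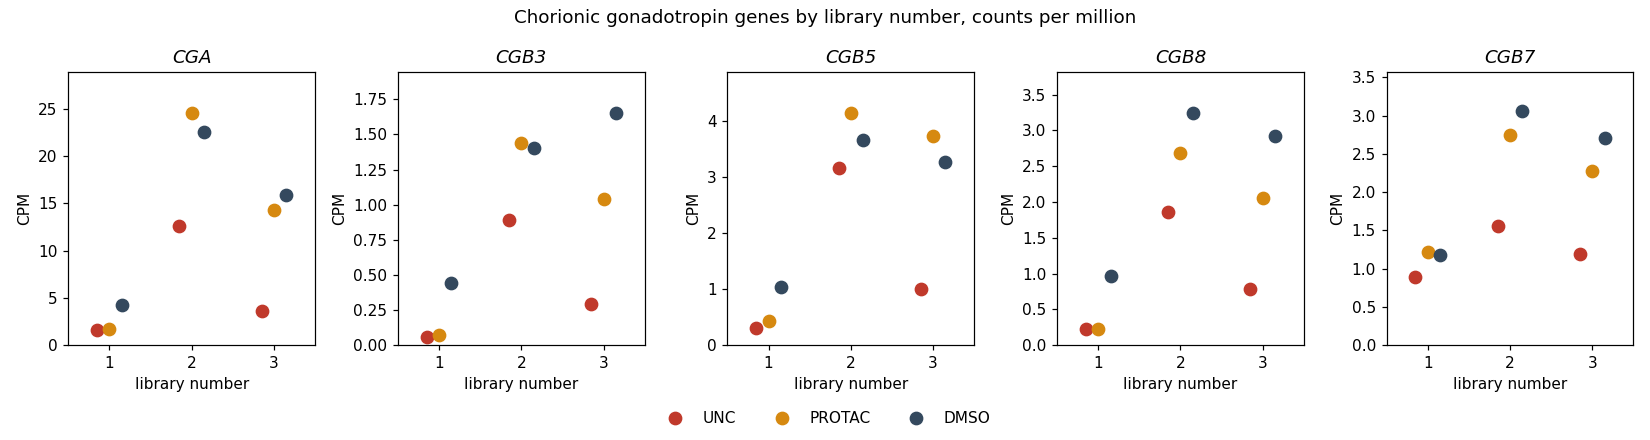
CPM of CGA, CGB3, CGB5, CGB8 and CGB7 in each library, by library number, coloured by group (UNC, PROTAC, DMSO). Library 1 is the lowest of its group in every panel, and for CGA it reaches 1.55 to 4.23 CPM, against 3.61 to 24.6 CPM in numbers 2 and 3.

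The pregnancy-specific glycoproteins are secreted members of the carcinoembryonic antigen family, encoded by a cluster on chromosome 19 and abundant in maternal serum. All 10 genes were rare in these cells. They are paralogs that can share reads, since 7.4% (PSG6) to 18.4% (PSG8) of their 75-base windows are found in another PSG gene. PSG4 was at 0.0289, 0.102 and 0.0381 CPM in UNC, at 0.0529, 0.0700 and 0.0316 CPM in PROTAC, and at 0.197, 0.262 and 0.259 CPM in DMSO. Every DMSO library was above every UNC and PROTAC library, on 67 counts in all. PSG4 entered the test only through the DMSO libraries, so a lower value in the other groups was fixed by the filter and its fold changes are given as a description. For UNC against DMSO the paired log2 fold change was -2.23 (SE 0.67, adjusted p = 0.02157, and up to 0.1611 with any 1 of the 6 UNC and DMSO libraries left out). In PROTAC against DMSO it gave -2.09 by group alone (95% interval -3.53 to -0.65, adjusted p = 0.9376) and -2.07 in the paired fit (adjusted p = 0.08204). PSG8 and PSG9 were lower in every UNC library than in every DMSO library and passed in neither fit. The other 7 PSG genes had 0 to 29 counts each over all libraries.

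As a family, the PSG genes summed to 0.125, 0.434 and 0.254 CPM in UNC, 0.285, 0.504 and 0.978 CPM in PROTAC, and 0.531, 1.30 and 0.731 CPM in DMSO. No UNC library reached a DMSO library, while PROTAC overlapped both. The sum fell in UNC against DMSO in the paired fit (log2 fold change -1.77, SE 0.34, adjusted p = 0.0003652), with each library left out as well, and did not pass by group alone (adjusted p = 0.1575). PSG8 and PSG3 overlap LIPE-AS1 on the opposite strand, which had 6404 counts, and the strand setting of the counting is not known.

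LEP encodes leptin, which the placenta makes as well as fat tissue. Its RefSeq promoter is shown because LEP had the largest log2 difference between PROTAC and UNC among the genes called, with the TFAP2 letters in capitals, 143 bases before the start. These letters occur in 19.8% of all RefSeq promoters of that length.
LEP (chr7:128241028-128241277, plus strand): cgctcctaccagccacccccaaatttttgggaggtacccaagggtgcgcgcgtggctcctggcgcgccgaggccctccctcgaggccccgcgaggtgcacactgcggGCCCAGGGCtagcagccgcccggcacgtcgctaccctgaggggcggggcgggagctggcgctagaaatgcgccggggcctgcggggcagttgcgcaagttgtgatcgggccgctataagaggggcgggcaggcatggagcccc
LEP was at 0.0289, 0.204 and 0.102 CPM in UNC, at 0.370, 0.840 and 1.89 CPM in PROTAC, and at 0.288, 1.11 and 0.401 CPM in DMSO. Every UNC library was below every library of both other groups, and the highest value was that of PROTAC 3. LEP fell in UNC against DMSO in the paired fit (log2 fold change -2.63, SE 0.48, adjusted p = 0.0003297) and was higher in PROTAC than in UNC (3.28, SE 0.46, adjusted p = 3.54e-05). Both calls remained in the paired fit with each library left out, and neither passed by group alone (adjusted p = 0.1641 and 0.3095). PROTAC against DMSO gave 0.66 by group alone (95% interval -0.91 to 2.23) and 0.64 in the paired fit (adjusted p = 0.4133). KISS1, the gene of kisspeptin, was between 0.153 and 0.434 CPM in all 9 libraries and passed in no comparison.

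**Figure D5:**
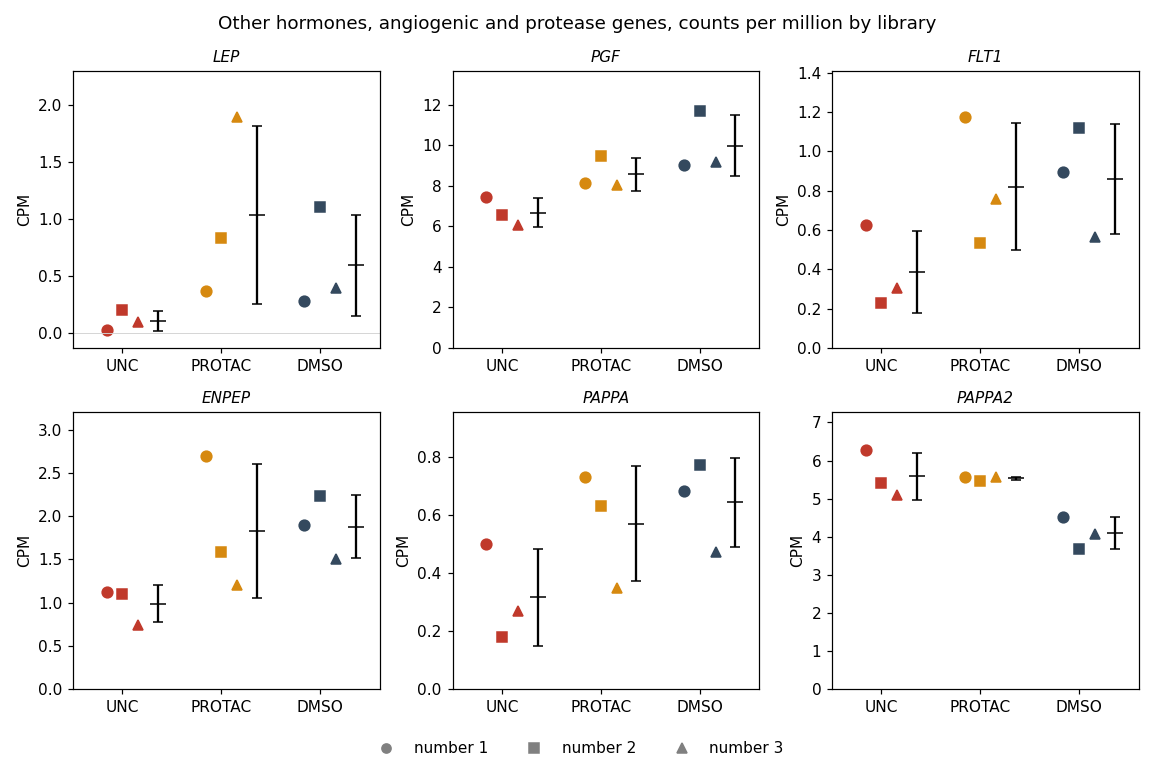
CPM of LEP, PGF, FLT1, ENPEP, PAPPA and PAPPA2 in each library (symbols by library number) with the group mean and SD (n = 3 each), for UNC, PROTAC and DMSO. LEP is lowest in UNC (0.0289 to 0.204 CPM), whereas PAPPA2 is higher in all UNC (5.09 to 6.26 CPM) and PROTAC (5.47 to 5.56 CPM) libraries than in DMSO (3.67 to 4.52 CPM).

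PGF, placental growth factor, is an angiogenic ligand, and FLT1 encodes its receptor, whose soluble form is released by the syncytiotrophoblast. Both are also made outside the placenta. PGF was at 7.43, 6.55 and 6.04 CPM in UNC, at 8.15, 9.49 and 8.05 CPM in PROTAC, and at 9.01, 11.7 and 9.19 CPM in DMSO. UNC lay below both other groups without overlap. PGF fell in UNC against DMSO in the paired fit (log2 fold change -0.56, SE 0.10, adjusted p = 0.0001065), with each library left out as well, and missed the threshold by group alone (-0.58, SE 0.14, adjusted p = 0.07548). FLT1 was at 0.626, 0.230 and 0.305 CPM in UNC, at 1.17, 0.532 and 0.757 CPM in PROTAC, and at 0.895, 1.12 and 0.566 CPM in DMSO. UNC was lower than DMSO in each pair, with UNC 1 above DMSO 3. FLT1 fell in the paired fit (-1.16, SE 0.31, adjusted p = 0.008571), a call lost without UNC 2 or DMSO 2 (adjusted p up to 0.2222), and the value was -0.68 without DMSO 2.

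The proteases split in direction. PAPPA and PAPPA2 encode metalloproteases that cut binding proteins of insulin-like growth factors and so release the growth factor. PAPPA2 was at 6.26, 5.41 and 5.09 CPM in UNC, at 5.56, 5.47 and 5.55 CPM in PROTAC, and at 4.52, 3.67 and 4.08 CPM in DMSO. Both compounds lay above DMSO in every library and overlapped each other. In the paired fit PAPPA2 rose in UNC (log2 fold change 0.45, SE 0.11, adjusted p = 0.005124) and in PROTAC (0.44, SE 0.11, adjusted p = 0.02639). These comparisons share the DMSO libraries. The UNC call was lost without UNC 1 or DMSO 2, the PROTAC call without PROTAC 2, PROTAC 3, DMSO 2 or DMSO 3 (adjusted p up to 0.07033 and 0.1747), and neither passed by group alone (0.1603 and 0.9376).

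PAPPA moved the other way. It was at 0.500, 0.179 and 0.267 CPM in UNC, at 0.729, 0.630 and 0.347 CPM in PROTAC, and at 0.683, 0.773 and 0.471 CPM in DMSO. UNC 1 was above DMSO 3, and each UNC library was below the DMSO library of its number. PAPPA fell in UNC against DMSO in the paired fit (log2 fold change -0.95, SE 0.32, adjusted p = 0.04372), which was lost when any 1 of UNC 1, UNC 2, UNC 3, PROTAC 2, DMSO 2 and DMSO 3 was left out (adjusted p up to 0.3289), with a value of -0.63 without UNC 2. Its 335 counts stand beside 797 of 5 antisense entries within its bounds. ENPEP, aminopeptidase A, which cleaves angiotensin II, was at 1.13, 1.10 and 0.737 CPM in UNC, at 2.70, 1.58 and 1.20 CPM in PROTAC, and at 1.90, 2.23 and 1.51 CPM in DMSO. UNC was below both other groups in every library. In the paired fit ENPEP fell in UNC against DMSO (-0.95, SE 0.20, adjusted p = 0.001051) with each library left out as well, and was higher in PROTAC than in UNC (0.90, SE 0.20, adjusted p = 0.006073), which was lost without UNC 1 or PROTAC 1 (0.53 and adjusted p = 0.312 without PROTAC 1).

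CYP19A1 is aromatase, which makes oestrogens from androgens, and HSD3B1 makes progesterone from pregnenolone. CYP19A1 was at 0, 0.179 and 0.0127 CPM in UNC, at 0.0951, 0.280 and 0.0316 CPM in PROTAC, and at 0.0758, 0.428 and 0.259 CPM in DMSO. Values were near the detection limit and overlapped. CYP19A1 fell in UNC against DMSO in the paired fit (log2 fold change -2.45, SE 0.75, adjusted p = 0.02342). The call was lost without UNC 1, UNC 3, PROTAC 2 or DMSO 3 (adjusted p up to 0.1925), the value was -4.35 without UNC 2, and overlapping entries held 250 counts against its own 90. HSD3B1, with 33 counts, was not tested. LGALS16, a galectin of the placental cluster, had no count in the 3 UNC libraries, 5, 13 and 3 counts in PROTAC 1, 2 and 3, and 5, 31 and 5 counts in DMSO. DMSO 2 held 31 of the 41 DMSO counts. LGALS16 was below the filter and was not tested. PLAC1, a membrane protein of trophoblast, was between 0.410 and 0.674 CPM in all libraries and passed in no comparison.

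In PROTAC against UNC no gene of the set passed by group alone, where 0.00827% of all genes were higher. In the paired fit 5 of 21 were higher (CSH1, CSH2, CGB7, LEP and ENPEP), where 2.16% of all genes were, and none was lower, where 0.74% were. All 5 also fell in UNC against DMSO in the paired fit. Both comparisons share the UNC libraries, so low values there enter both, and the second is not separate evidence. The doses differ, 2.5 µM for UNC6852 and 1 µM for UNC1999, so these values compare the cultures as treated and not the compounds at a matched dose. Groups did not overlap for 9 genes that were lower in UNC than in DMSO (9.07% of all genes) and for 1 that was higher (8.34%). The 9 include PSG4, PSG8 and PSG9, which passed the filter with 0 UNC libraries at or above its level, so the count cannot be read against that share for them. For PROTAC against DMSO there was 1 on either side (PSG4 lower, again fixed by the filter, beside 5.44% of all genes, and PAPPA2 higher, 6.07%). For PROTAC against UNC, 6 genes were higher without overlap (CSH1, CSH2, GH2, LEP, ENPEP and PGF, 5.15% of all genes) and none was lower (3.93%).

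Genes that act around these hormones were counted in the same fits, from lists of regulators, fusion genes, receptors, steroid enzymes and further placental products. Among 28 tested trophoblast regulators, 7 fell and 2 rose in UNC against DMSO in the paired fit, where 6.46% of all genes fell and 7.05% rose. By group alone 1 fell, where 0.401% of all genes did: GATA3, a transcription factor of early trophoblast (log2 fold change -1.50, adjusted p = 0.04646). GATA2 (-1.08), TFAP2A (-1.44) and GCM1 (-0.90), which drives syncytin expression and fusion, fell in the paired fit. These falls are of rare transcripts, with means over all libraries of 0.618 (TFAP2A) to 3.81 CPM (GATA2). The 2 rises were KLF5 (0.40) and CEBPB (0.26), at means of 56.6 and 64.9 CPM. The abundant regulators TFAP2C, TEAD4 and ARID3A (means of 115, 173 and 137 CPM) were called in neither fit. Among 16 fusion and envelope genes, 6 fell and 4 rose in the paired fit. The syncytins ERVW-1 (-0.90) and ERVFRD-1 (-1.89) were among the falls, and both also fell in PROTAC against DMSO (-0.63 and -1.05, adjusted p = 0.01094 and 0.02865 in the paired fit). DYSF, a membrane repair protein, rose in UNC in both fits (0.32, adjusted p = 0.04159 by group alone).

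Receptors and binding partners of the hormones gave 8 falls and 3 rises among 21 tested in UNC against DMSO in the paired fit, with IGFBP3 (-0.90), NRP2 (-0.77), ENG (-0.56) and IGFBP6 (-0.49) as the largest falls. Of 16 steroid synthesis genes tested 3 rose and 1 fell in the paired fit, the fall being CYP11A1 (-0.77), which starts steroid synthesis from cholesterol, and HSD17B4 (0.37) rose in both fits. Of 29 other placental products 7 fell and 2 rose in the paired fit, led by MUC15 (-2.11), KRT23 (-1.34) and the trophoblast keratin KRT7 (-0.51). The median log2 fold changes by group alone were -0.14 for the regulators, -0.09 for fusion genes, -0.24 for receptors, 0.06 for steroid synthesis and -0.18 for the other products, beside -0.01 for all genes. The shares of all genes in the paired fit, 6.46% falling and 7.05% rising, apply to each of these lists, and the rises among regulators and other products and the fall in steroid synthesis lie near them. In PROTAC against DMSO, where 2.03% of all genes rose and 0.988% fell, the paired fit called 1 rise and 1 fall among regulators, 2 of each among fusion genes, and 2, 4 and 1 rises with no fall among receptors, steroid enzymes and other products.

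Levels of markers of other cell types were summed in the same libraries. Beside the counts below, 6.46% of all genes fell and 7.05% rose in UNC against DMSO in the paired fit. For PROTAC against DMSO these shares were 0.988% and 2.03%. By group alone 1 fibroblast, 1 amnion, 1 extravillous trophoblast, 1 trophoblast and 1 primed marker fell in UNC, where 0.401% of all genes did. One fit, by group alone, also had 1 naive marker higher in UNC, where 0.318% of all genes were. The 6 fibroblast markers summed to 159 to 208 CPM in UNC, 231 to 254 CPM in PROTAC and 233 to 285 CPM in DMSO, nearly all from COL1A1 and COL1A2, with LUM at 0 and COL3A1 and DCN at 5 counts each over all libraries. In UNC against DMSO, 2 of the 3 tested fibroblast markers fell in the paired fit and none rose, and in PROTAC against DMSO 1 fell and none rose. The 6 amnion markers summed to 20.3 to 24.4 CPM in UNC, 24.0 to 30.4 CPM in PROTAC and 25.4 to 28.8 CPM in DMSO, with 2 falls and no rise among 5 tested in UNC against DMSO in the paired fit and none in PROTAC against DMSO. The 6 markers of extravillous trophoblast summed to 57.9 to 64.0 CPM in UNC, 70.4 to 76.1 CPM in PROTAC and 74.0 to 84.3 CPM in DMSO, with 1 fall and no rise among 6 tested in UNC, and 1 fall in PROTAC. Of the 6 trophoblast markers that could be tested, 4 fell in UNC against DMSO in the paired fit (GATA3, GATA2, TFAP2A and KRT7). The lists overlap: GATA3, GATA2 and TFAP2A are also among the regulators above, and KRT7 is among the other placental products. IGFBP3 is both an amnion marker and in the receptor list. These are the same falls counted again and not further ones. Pluripotent markers showed no fall in either fit, and 2 of 7 rose in UNC and 1 in PROTAC in the paired fit. Of 8 naive markers, 3 rose in UNC and 3 in PROTAC in the paired fit, and none fell. Of 6 markers of the primed pluripotent state, 2 fell and 1 rose in UNC, and 1 fell in PROTAC. POU5F1 averaged 714 ± 58.0 CPM in UNC, 747 ± 43.9 CPM in PROTAC and 727 ± 45.6 CPM in DMSO (SD, n = 3 each). The part of a changed number of such cells in the hormone values was not tested.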

How the data were processed

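RNA sequencing libraries of 9 HNES1 cultures, 3 each for UNC, PROTAC and DMSO, were analysed; group and number come from the sample titles. The submitters' processing notes name Trim Galore 0.6.10, HISAT2 2.2.1 and the build GRCh38. Which tool counted the reads, on which annotation and with which strand setting is not given in the sources used here. In the labels, the RNA is described by both polyA RNA and a library kit with ribosomal depletion, so the transcript selection is uncertain. The authors deposited raw counts, whole numbers for each gene and library, beside GRCh38 coordinates. The 5 entries without an identifier (0.00893% of counts) were left out.

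The tests were two-sided quasi-likelihood tests of edgeR 4.0.16 (R 4.3.3) on TMM-scaled counts, after edgeR's filter on low counts (about 0.137 CPM in 3 libraries, 24182 genes left). All 9 libraries entered a robust fit with the group as its only term, and p-values were adjusted by Benjamini-Hochberg over all genes, at a threshold of 0.05. The SE is the absolute log2 fold change over the square root of the F statistic. The biological variation between libraries (common coefficient) came to 13.2% by group alone, with 6 residual degrees of freedom, and to 6.09% with the library number as a block, with 4. Deviations from the group means went together between libraries of equal number (9 correlations of 0.289 to 0.676, against 18 of -0.57 to 0.0386 for different numbers), so the paired fit stands beside each result whose call it changes. The series text states independent repeats but not that a number marks one. Replicates differed beyond counting noise (chi-square over degrees of freedom 11.4 to 37.9). The CSH/GH, PSG and CGB families were also tested as sums, each replacing its members in the table.

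The genes and lists were chosen with earlier results of these data known, so their patterns are no independent evidence. Per-library values are given for genes called in either fit in any comparison and for the 6 highest in CPM, and up to 4 called genes are named per related list; other named genes, and the promoters printed, were picked with their values known. The comparison of library numbers, the CRE motif and the alternatives within the paired fit were added after the data were seen. Exon lengths and shared windows are from GENCODE 29, and promoters are from RefSeq (GRCh38.p14), which matched 25 of the 36 genes. Motifs were searched as exact letters on both strands. Alternatives were RLE and library-size scaling, DESeq2 1.42.0, no filter, 1 CPM in 3 libraries, 6 libraries only, a false discovery rate of 0.01, and leaving out each library or number.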

Additional observations from a re-analysis of the deposited data

How the results depend on the processing

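By group alone, the 2 falls in UNC against DMSO became 1 with scaling by library size, 4 (and 1 rise) with DESeq2, 12 without a filter, 0 at a false discovery rate of 0.01, 1 with the 6 libraries compared and 1 with families as sums. They were 0 to 2 with 1 library left out (0 without UNC 2, DMSO 2 or DMSO 3) and 0 without number 2 or number 3 of every group. The 0 genes higher in PROTAC than in UNC became 3 with DESeq2 and 7 without a filter. The PSG sum in UNC against DMSO passed with DESeq2 (-1.73) and without a filter (-1.79), the CGB sum without a filter (-1.12), and in PROTAC against UNC the CSH/GH sum passed with DESeq2 (1.11) and without a filter (1.11), the CGB sum without a filter (0.89). The CSH/GH sum in UNC lost its call without number 2 (-1.27) or number 3 (-1.45), and the CGB sum in PROTAC against DMSO, never called, ranged between -0.70 and 0.24 with 1 library left out, with 0.24 without PROTAC 1 and 0.05 without DMSO 2. Why these values moved was not tested.

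The replicate block, pairing libraries by number, gave 13 falls and 1 rise in UNC against DMSO, 1 rise in PROTAC against DMSO and 5 higher in PROTAC against UNC, and passed the sums of PSG (-1.77) and CGB (-1.17) in UNC and of CSH/GH in PROTAC against UNC (1.14). It changed no call of the other sums. Within it, the 13 falls became 7 with 1 CPM in 3 libraries, which tests fewer genes, and 6 without number 2. The rise in UNC became 0 without UNC 1, DMSO 2 or number 2. The rise in PROTAC became 0 with scaling by library size, at 0.01, without PROTAC 2, PROTAC 3, DMSO 2 or DMSO 3, and without number 2 or number 3. Falls in PROTAC against DMSO became 1 without a filter and 2 without DMSO 2. The 5 genes higher in PROTAC than in UNC became 11 without a filter and 8 without DMSO 1 (range 4 to 8 with 1 library left out). The CGB sum in UNC lost its call without UNC 1 (-1.22), DMSO 1 (-1.03), DMSO 3 (-1.07) or number 1 (-1.12), and in PROTAC against UNC it passed without a filter (0.82), UNC 2 (1.09), PROTAC 1 (1.01), DMSO 2 (0.82) or number 2 (0.97). Number 1 against 2 and 3 had 2 genes higher, which became 0 with DESeq2 and without the UNC or the PROTAC group, and 1 with 1 CPM in 3 libraries. CSH1, CSH2 and LEP kept their paired calls in UNC against DMSO and in PROTAC against UNC under each alternative that could be fitted. Depth limits the PSG genes, CSHL1, CYP19A1 and the 15 untested genes, and with 3 libraries per group a difference that missed the threshold is not shown to be absent.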
